A study of Homo sapiens with 12 samples.

Results

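The genes described here build, fold and clear proteins at the endoplasmic reticulum (ER), the compartment in which a cell makes its membrane and secreted proteins. They were taken from a list of 50 genes in 8 roles, of which 47 were measured among the 19775 genes of the arrays. SEC61G and KDELR2 had no probe set naming them alone in the annotation used, and SYVN1 shared its probe set with a microRNA gene, so these 3 were not analysed here. RNA came from 3 established human mantle cell lymphoma lines, Rec-1, SP-49 and Mino, a cancer of B cells. Cells of each line received 1 µM of compound E (called GSI) or 0.1% DMSO, its solvent (called Mock), and were cultured for 24 h. Compound E inhibits gamma-secretase, the protease whose cut sets the active part of Notch receptors free. Each of the 6 groups had 2 Affymetrix arrays. Rec-1 and SP-49 were grown in 10% serum and Mino in 15%, so in comparisons with Mino line and serum level cannot be told apart. The labels do not say whether the 2 arrays of a group came from separate cultures, so the p-values below reflect the spread between these arrays alone, and that spread may be technical.

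Proteins bound for secretion carry a signal peptide that the signal recognition particle reads as it leaves the ribosome. The particle docks at its receptor on the ER, the chain passes through the SEC61 channel, and signal peptidase removes the peptide. Chaperones such as BiP (HSPA5) and the disulfide isomerases fold the chain, while ER-associated degradation (ERAD) returns misfolded chains to the cytosol. When unfolded protein builds up, the sensors IRE1 (ERN1), PERK (EIF2AK3) and ATF6 start the unfolded protein response, which raises chaperone and ERAD genes. The response is known for its part in plasma cells, the antibody-secreting end stage of the B-cell lineage, through the transcription factor XBP1.

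Many chaperone promoters hold the ER stress response element, the docking sequence of ATF6 together with NF-Y. Its full form (ERSE) was searched as CCAAT followed after 9 bases of any kind by CCACG, and its short form (ERSE-II) as ATTGG followed after 1 base by CCACG, on both strands, from 250 bases before to 50 after each gene's start in RefSeq promoters of build GRCh38.p14. Of the 50 genes, 44 had a promoter there. ERSE lay in 5 of the 44 (11.4%) and in 22 of all 27305 promoters (0.0806%), and ERSE-II in 3 of the 44 (6.82%) and in 15 of all (0.0549%). The windows below are shown because these 8 genes share a known control element and are followed through the results. Capitals mark the element and the lower-case bases its flanks, 5′ to 3′ on the gene's strand.
HSPA5, ERSE, chr9:125241371-125241429, minus strand: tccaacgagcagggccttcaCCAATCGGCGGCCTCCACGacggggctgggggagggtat
HSP90B1, ERSE, chr12:103930196-103930254, plus strand: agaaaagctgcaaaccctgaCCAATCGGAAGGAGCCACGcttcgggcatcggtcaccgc
HSP90B1, ERSE in reverse, chr12:103930301-103930359, plus strand: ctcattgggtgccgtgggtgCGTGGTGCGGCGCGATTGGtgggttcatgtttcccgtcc
CALR, ERSE in reverse, chr19:12938364-12938422, plus strand: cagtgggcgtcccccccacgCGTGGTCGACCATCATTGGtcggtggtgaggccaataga
CANX, ERSE, chr5:179698758-179698816, plus strand: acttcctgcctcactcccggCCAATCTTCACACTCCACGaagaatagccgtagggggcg
CRELD2, ERSE in reverse, chr22:49918534-49918592, plus strand: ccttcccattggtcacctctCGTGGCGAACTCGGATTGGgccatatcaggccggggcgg
HYOU1, ERSE-II in reverse, chr11:119057360-119057410, minus strand: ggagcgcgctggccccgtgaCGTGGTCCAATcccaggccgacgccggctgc
HYOU1, ERSE-II in reverse, chr11:119057254-119057304, minus strand: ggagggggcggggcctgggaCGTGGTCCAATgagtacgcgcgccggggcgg
SDF2L1, ERSE-II in reverse, chr22:21642094-21642144, plus strand: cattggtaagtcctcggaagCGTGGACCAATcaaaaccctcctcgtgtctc
HERPUD1, ERSE-II, chr16:56932005-56932055, plus strand: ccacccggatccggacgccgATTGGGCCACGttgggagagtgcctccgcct

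Counted from the gene's start, the nearest sites lay at -66 to -48 in HSPA5, -79 to -69 in HYOU1, -80 to -62 in CRELD2 and -89 to -71 in HSP90B1. The core of the UPR element, TGACGTGG, lay in 217 of all promoters (0.795%) and in SEC62, SRP19 and HYOU1, where it overlapped the upstream ERSE-II. The E-box CACGTG, a docking sequence of MYC and other factors, lay in 7 of the 44 (15.9%) and in 2030 of all promoters (7.43%). The 7 were SSR1, SSR3, SEC11C, HSP90B1, DNAJB9, HERPUD1 and ATF4. A match is a description of the letters and shows no binding.

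The deposited values were log2 intensities between 0.58 and 12.78, and every value below is on that scale unless a fold is named. No measured member was dim, meaning a highest group mean under 1.99, the median of all values. Replicate arrays correlated at 0.984 to 0.995 over all genes. Rec-1 GSI 2 and SP-49 GSI 2 had the narrowest signal range (SD over probe sets 1.95 and 2.0, against 2.01 to 2.05 in the other 10 arrays). HES1, a direct Notch target, changed with the inhibitor by -3.80 in Rec-1 (limma, Benjamini-Hochberg adjusted p = 3.45e-06) and by -3.51 in SP-49 (adjusted p = 1.18e-05), or by -1.75 and -1.73 with the mean of its probe sets. In Mino its change was -0.07 (adjusted p = 1), where its Mock arrays, at 1.69 and 2.0, were near background. MYC, also a treatment check, changed by -1.53 in Rec-1 (limma adjusted p = 0.000754), -1.55 in SP-49 (adjusted p = 0.00565) and 0.13 in Mino. With 1 array left out its change stayed between -1.83 and -1.24 in Rec-1 and between -1.58 and -1.53 in SP-49. Its call in SP-49 was lost without either SP-49 Mock array or without SP-49 GSI 2. With only the arrays compared MYC did not pass in Rec-1 (limma adjusted p = 0.0805). The 5 measured B-cell markers of 6 listed averaged 7.55 to 8.78 over the groups, and 4 marker lists of T cells, myeloid cells, stroma and epithelium averaged 1.53 to 2.89. Of the 16 measured markers in those lists 11 had a highest group mean above the median of all values, led by CD3D (4.80, Rec-1 Mock), EPCAM (4.14, Mino GSI) and CDH1 (3.56, SP-49 Mock). With the inhibitor CD3D was lower in Rec-1 (-0.63, limma adjusted p = 0.0253) and CDH1 in SP-49 (-1.73, adjusted p = 0.0207).

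In Rec-1, compound E lowered SRPRB and HYOU1 and raised EDEM1 and DERL3. SRPRB anchors the signal recognition particle receptor in the ER membrane, and HYOU1 is a large chaperone that works with BiP. EDEM1 and DERL3 both serve ERAD, EDEM1 by marking misfolded glycoproteins and DERL3 in the membrane. These 4 of 47 members (8.51%) passed the test, 2 in each direction, against 5.77% of all genes tested (2.15% higher, 3.62% lower) and 7.86% of the genes that were not dim. Because the RNA is from whole cultures, fewer cells of a kind and less RNA per cell cannot be told apart.

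**Figure D1:**
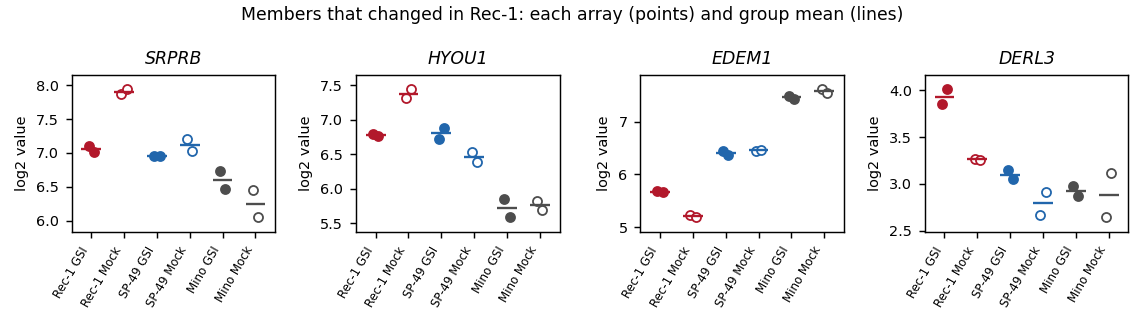
Deposited log2 values (vertical axes) of SRPRB, HYOU1, EDEM1 and DERL3 on each of the 12 arrays, with filled points for GSI, open points for Mock and lines for the mean of 2 arrays. In Rec-1 both GSI arrays lie below both Mock arrays for SRPRB and HYOU1 and above them for EDEM1 and DERL3.

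SRPRB measured 7.11 and 7.02 in Rec-1 GSI, against 7.86 and 7.94 in Rec-1 Mock. Both inhibitor arrays were lower, and SRPRB fell by 0.84 (1.79-fold, 95% interval -1.18 to -0.49, limma adjusted p = 0.00986). Its other probe sets changed by -1.24 and -0.35 in the same line. HYOU1 measured 6.79 and 6.76 in Rec-1 GSI, against 7.31 and 7.44 in Rec-1 Mock. The groups did not overlap, and it fell by 0.60 (1.52-fold, interval -0.90 to -0.30, limma adjusted p = 0.0264). In Rec-1 both GSI arrays lay below both Mock arrays for 22.3% of all genes and above them for 22.9%.

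EDEM1 measured 5.68 and 5.66 in Rec-1 GSI, against 5.23 and 5.18 in Rec-1 Mock. Both inhibitor arrays were higher, by 0.47 (1.38-fold, interval 0.22 to 0.71, limma adjusted p = 0.0339). DERL3 measured 3.85 and 4.01 in Rec-1 GSI, against 3.27 and 3.25 in Rec-1 Mock, again without overlap. It rose by 0.67 (1.59-fold, interval 0.31 to 1.03, limma adjusted p = 0.0359), and its other probe sets changed by 0.41 and 0.85. The probe sets chosen for SRPRB and DERL3 are of a kind that can also bind related transcripts, as are those chosen for CALR, HSP90B1 and SPCS3.

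The 4 calls rested on few arrays. None of the 47 passed without Rec-1 Mock 1 or without Rec-1 Mock 2, when the adjusted p of SRPRB was 0.0571 and 0.0788 (limma). SRPRB alone passed without Rec-1 GSI 2, 2 members passed without either SP-49 Mock array or either Mino GSI array, and 3 passed without Rec-1 GSI 1. HYOU1 did not pass after quantile normalization was applied again (adjusted p = 0.0576), nor DERL3 with an intensity trend and robust prior (adjusted p = 0.0612). With Rec-1 GSI 2 and SP-49 GSI 2 both left out, 0 of 47 passed and the adjusted p was 0.0608 for SRPRB, 0.0962 for HYOU1, 0.0999 for EDEM1 and 0.162 for DERL3. The 3′ minus 5′ signal of GAPDH, a measure of RNA integrity, was 0.59 and 0.49 in Rec-1 GSI against 0.41 and 0.37 in Rec-1 Mock, and its part in these changes was not tested. Cell type markers moved in the same comparison. The plasma cell markers summed to 30.9 and 30.4 in Rec-1 GSI, against 27.9 and 29.0 in Rec-1 Mock, with 1 of 6, JCHAIN, past the test (1.56, limma adjusted p = 0.000654). Also in the plasma cell list, PRDM1 and MZB1 lay higher on both inhibitor arrays and IRF4 lower, while SDC1 and TNFRSF17 overlapped. None of these was called. Of the 5 B-cell markers, 2 were called higher, CD79B by 1.06 (adjusted p = 0.000792) and MS4A1 by 0.51 (adjusted p = 0.04). CD79A lay higher without a call. PAX5 measured 8.42 and 8.49 in Rec-1 GSI, against 8.86 and 8.87 in Rec-1 Mock. CD22 lay lower too, and neither PAX5 nor CD22 was called. Of the 4 T-cell markers CD3D alone was called. The part of these markers in the 4 changes was not tested.

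**Figure D2:**
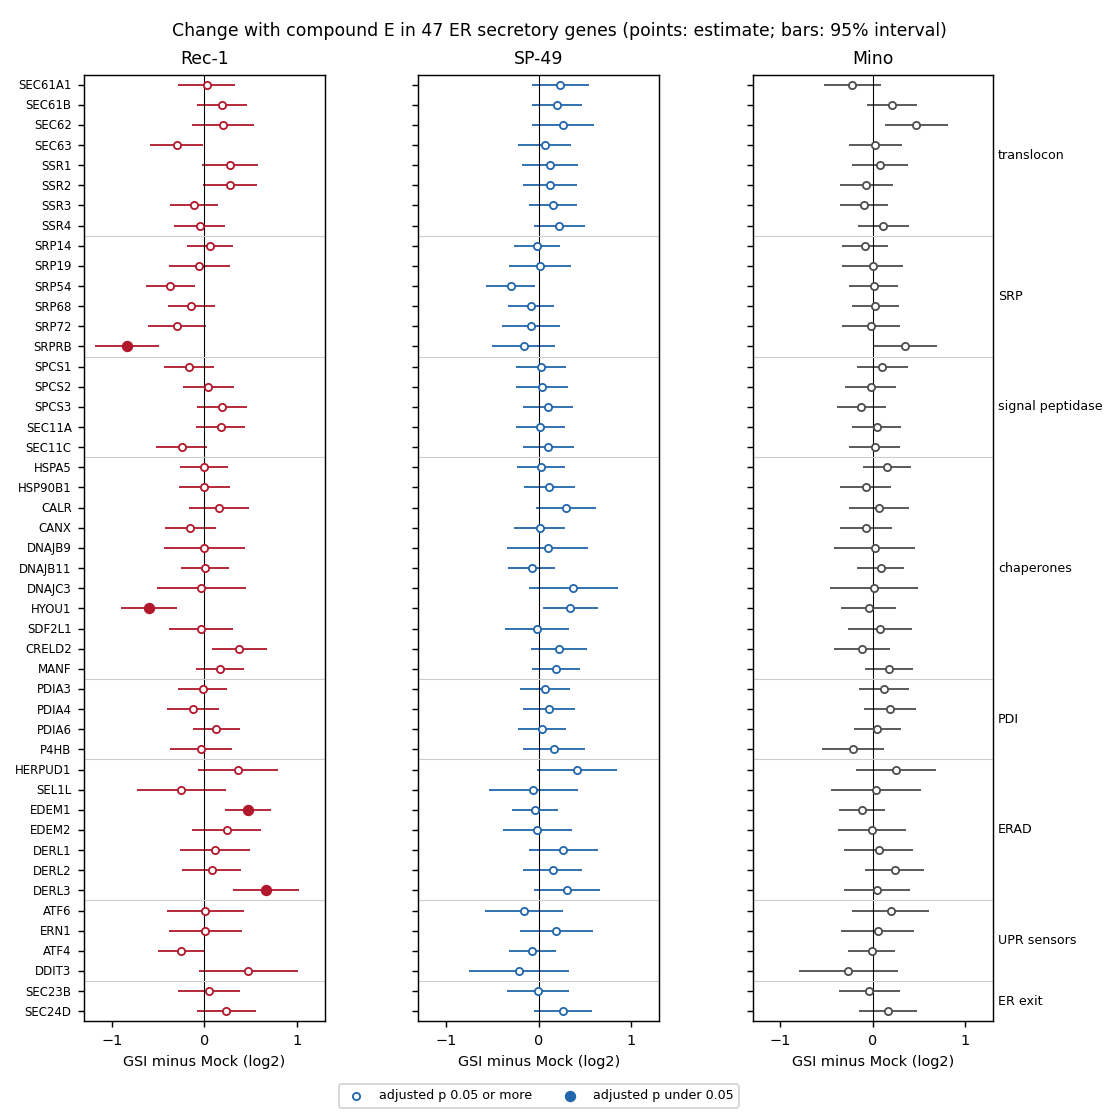
GSI minus Mock (log2, horizontal axes) of the 47 measured genes in Rec-1, SP-49 and Mino, grouped by role. Points are estimates, bars 95% intervals and filled points an adjusted p under 0.05, which 4 genes reached in Rec-1 and none in the other lines.

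The remaining 43 members did not pass in Rec-1, and for 44 of 47 the 95% interval lay within a 2-fold change. BiP (HSPA5), the main ER chaperone, measured 9.58 and 9.54 in Rec-1 GSI, against 9.58 and 9.56 in Rec-1 Mock, a difference of -0.01 (interval -0.27 to 0.25). ERAD had 2 of 7 measured members higher, against 2.15% of all genes, and a median change of 0.24. The signal recognition particle group had 1 of 6 lower, against 3.62% of all genes, and a median of -0.22. These were EDEM1, DERL3 and SRPRB, whose calls rested on few arrays, so the counts show no direction of a role. SRP54, the subunit that binds the signal peptide, measured 6.0 and 6.09 in Rec-1 GSI, against 6.35 and 6.48 in Rec-1 Mock (limma adjusted p = 0.114).

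No member passed among the 8 of the translocon (median 0.11), the 5 of signal peptidase (0.04), the 4 disulfide isomerases (-0.03) or the 4 sensors and transcription factors (0.01). The translocon values depended on the probe set. SSR3 changed by -0.11 on the chosen one and by -0.74, -0.44 and -0.31 on dimmer ones. SEC61A1 changed by 0.02 and, on a dimmer one, by -0.65, while all probe sets of SEC62 lay above 0. With the mean of probe sets no translocon gene passed either. DDIT3, which encodes the stress factor CHOP, measured 6.53 and 6.37 in Rec-1 GSI, against 6.04 and 5.92 in Rec-1 Mock (limma adjusted p = 0.329). ATF4, which acts upstream of CHOP, measured 8.65 and 8.69 in Rec-1 GSI, against 8.91 and 8.93 in Rec-1 Mock (limma adjusted p = 0.267), and was called lower with an intensity trend and robust prior. For both genes the groups did not overlap, with CHOP higher on the inhibitor arrays and ATF4 lower. Over all genes the inhibitor arrays were wholly higher for 22.9% and wholly lower for 22.3%. Over all 47 the median change was 0.01, against 0.01 over all genes. It was 0.11 after quantile normalization was applied again and -0.02 with each array centred on its median, so its sign depends on the scaling.

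In SP-49 none of the 47 members passed in limma, against 0.192% of all genes tested and 0.263% of those not dim. An unadjusted p under 0.05 was reached by 2 of the 47, HYOU1 and SRP54, and by 1754 of all 19775 genes. HYOU1 measured 6.72 and 6.88 in SP-49 GSI, against 6.53 and 6.39 in SP-49 Mock, a difference of 0.34 (interval 0.04 to 0.64, limma adjusted p = 0.485). Its inhibitor arrays were the higher ones here and the lower ones in Rec-1. SRP54 measured 5.99 and 5.82 in SP-49 GSI, against 6.16 and 6.25 in SP-49 Mock (limma adjusted p = 0.491). HERPUD1, an ERAD scaffold, measured 10.05 and 10.43 in SP-49 GSI, against 9.79 and 9.86 in SP-49 Mock (limma adjusted p = 0.588).

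Small positive differences were common in SP-49. The estimate was above 0 for 33 of 47 members (70.2%), against 45.8% of all genes, and the median was 0.10 against -0.02. All 8 translocon genes, all 5 of signal peptidase (0.02 to 0.11) and all 4 disulfide isomerases were on that side, as were 9 of 11 chaperones. So were 4 of 7 ERAD genes and 1 of 2 of ER exit, but 1 of 4 sensors and transcription factors and 1 of 6 signal recognition particle genes. Both GSI arrays were above both Mock arrays for 19 members (40.4%), against 18.1% of all genes, and below them for 5 (10.6%), against 24.4%. The median of members relative to the Mock mean was 0.11 on SP-49 GSI 1 and 0.05 on SP-49 GSI 2. The median change stayed positive, at 0.16 and 0.09, under the other scalings. The plasma cell markers summed to 34.8 and 34.9 in SP-49 GSI, against 31.6 and 32.0 in SP-49 Mock, with 1 of 6, MZB1, past the test. Their part in the shift was not tested.

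In Mino none of the 47 members passed in limma, as was so for all genes tested (0%). An unadjusted p under 0.05 was reached by 2 of the 47 and by 969 of all 19775 genes. SEC62, a partner of the SEC61 channel, measured 7.37 and 7.21 in Mino GSI, against 6.99 and 6.65 in Mino Mock, a difference of 0.47 (limma adjusted p = 0.929). A second, similarly bright probe set of SEC62 differed by -0.03. SRPRB measured 6.74 and 6.46 in Mino GSI, against 6.45 and 6.05 in Mino Mock, a difference of 0.35 (limma adjusted p = 0.992). The median over members was 0.03, and for all 47 the interval lay within a 2-fold change. In Mino too the estimate was more often above 0, for 29 of 47 members (61.7%), against 49.1% of all genes. Both GSI arrays were above both Mock arrays for 12 members (25.5%), against 16.2% of all genes, and below them for 8 (17%), against 17%.

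Whether the response differed between lines was tested directly. SRPRB was the 1 member of 47 that passed between Rec-1 and Mino, against 1.43% of all genes tested and 1.95% of those not dim. Its change in Rec-1 was 1.18 below that in Mino (interval -1.67 to -0.70, limma adjusted p = 0.0285). EDEM1 (difference 0.59, adjusted p = 0.109), HYOU1 (-0.55, adjusted p = 0.217) and DERL3 (0.62, adjusted p = 0.25) did not pass. The SRPRB call was lost without any 1 of 8 arrays, the highest adjusted p being 0.121 without Mino GSI 1. Those arrays were Rec-1 GSI 2, both Rec-1 Mock, both SP-49 Mock, both Mino GSI and Mino Mock 2, and the difference stayed between -1.39 and -0.98 over all 12 omissions.

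Between Rec-1 and SP-49 none of the 47 passed in limma, against 0.556% of all genes tested and 0.76% of those not dim. An unadjusted p under 0.05 was reached by 3 of the 47 and by 2170 of all 19775 genes. HYOU1 came closest, its change in Rec-1 being 0.94 below that in SP-49 (log2 -0.94, interval -1.36 to -0.52, adjusted p = 0.0658). It has 1 probe set. It passed when the genes with several probe sets were averaged, which left its own values as they were, and with an intensity trend and robust prior. Between SP-49 and Mino none passed, against 0.0455% of all genes and 0.0622% of those not dim. There 2 of the 47 had an unadjusted p under 0.05, against 1417 of all 19775 genes. These differences share arrays with one another.

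Of 66 other genes of the pathway, 63 were measured. In Rec-1, 7 of the 63 (11.1%) passed, 2 higher and 5 lower, with a median of -0.11 over the 63, against 5.77% and a median of 0.01 over all genes and 7.86% of those not dim. SELENOS, a selenoprotein of ERAD, measured 4.85 and 4.53 in Rec-1 GSI, against 5.49 and 5.51 in Rec-1 Mock (-0.81, limma adjusted p = 0.00537). UBE2J1, the ubiquitin-conjugating enzyme of ERAD, measured 8.16 and 8.24 in Rec-1 GSI, against 7.57 and 7.56 in Rec-1 Mock (0.64, limma adjusted p = 0.0125). The groups did not overlap for either gene, which moved in opposite directions. Over all genes this held for 22.3% in the lower and 22.9% in the higher direction.

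TRAM2, which assists translocation, measured 6.41 and 6.20 in Rec-1 GSI, against 7.07 and 7.03 in Rec-1 Mock (-0.74, limma adjusted p = 0.00769). With the mean of its probe sets the change was -0.41 (adjusted p = 0.18). ERO1B, an oxidase that feeds disulfide formation, rose by 0.84 at a level near background (limma adjusted p = 0.0155), and by 0.36 with the mean of its probe sets (adjusted p = 0.135). The peroxiredoxin PRDX4 fell by 0.61 (limma adjusted p = 0.0222). MOGS, which trims the first glucose of N-glycans, fell by 0.63 (adjusted p = 0.0255), as did DDOST, a subunit of the oligosaccharyltransferase, by 0.51 (adjusted p = 0.0471), named after its values were seen. With only the arrays compared, SELENOS, TRAM2, UBE2J1, ERO1B, PRDX4 and MOGS did not pass (limma adjusted p 0.124 to 0.193). In that fit 21 of all genes passed. The calls of TRAM2, UBE2J1, PRDX4 and MOGS were also lost without either Rec-1 Mock array, and that of ERO1B without Rec-1 Mock 1. With 1 array left out PRDX4 changed by -0.74 to -0.47 and MOGS by -0.70 to -0.55. None of the 63 passed in SP-49 or Mino in limma, where 8 and 3 had an unadjusted p under 0.05, against 1754 and 969 of all 19775 genes.

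XBP1, the transcription factor activated by IRE1, did not pass in any line. It measured 5.19 and 5.14 in Rec-1 GSI, against 5.32 and 5.20 in Rec-1 Mock (limma adjusted p = 0.847). In SP-49 it measured 7.18 and 7.0 with GSI, against 6.71 and 6.58 with Mock (limma adjusted p = 0.509). In Mino it measured 5.64 and 5.72 with GSI, against 5.46 and 4.81 with Mock (limma adjusted p = 0.929). Its inhibitor arrays were above the Mock arrays in SP-49 and Mino and below them in Rec-1. Over all genes that order held for 18.1% in SP-49, 16.2% in Mino and 22.3% in Rec-1. PERK (EIF2AK3) differed by 0.28, -0.03 and 0.06 in Rec-1, SP-49 and Mino, with no call. These arrays measure total XBP1 RNA and not its splicing.

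Members differed by more between the lines than with the inhibitor, as did genes in general. The median absolute difference over the 47 members was 0.49 between Rec-1 and Mino Mock, 0.50 between SP-49 and Mino Mock and 0.45 between Rec-1 and SP-49 Mock, against 0.16, 0.12 and 0.08 with the inhibitor in Rec-1, SP-49 and Mino. Over all genes these medians were 0.22, 0.23 and 0.24 between lines, against 0.18, 0.13 and 0.11 with the inhibitor. Over genes not dim they were 0.32, 0.33 and 0.35, against 0.21, 0.15 and 0.11. In the Mock arrays 23 of 47 members (48.9%) passed between Rec-1 and Mino, 14 higher and 9 lower, against 26.1% of all genes (12.8% higher, 13.3% lower) and 35.3% of those not dim. Between SP-49 and Mino 25 passed (53.2%), 20 higher and 5 lower, against 25.6% (13.9% higher, 11.8% lower) and 34.7%. Between Rec-1 and SP-49 24 passed (51.1%), 6 higher and 18 lower, against 28.9% (13.1% higher, 15.8% lower) and 38.9%. Leaving out 1 array gave 19 to 24, 20 to 27 and 18 to 26 members. The 5 members lower in SP-49 than in Mino became 2 without Mino Mock 2 and 2 without SP-49 Mock 1. The first and second of these comparisons share the Mino Mock arrays, and each of the others likewise shares a line.

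**Figure D3:**
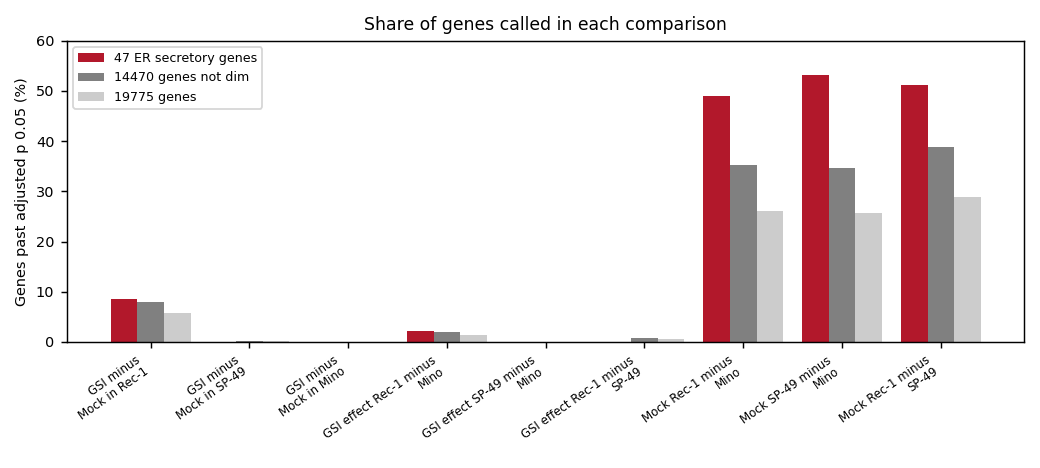
Percent of genes with an adjusted p under 0.05 (vertical axis, from 0) in each comparison, for the 47 ER secretory genes, the 14470 genes that were not dim and all 19775 genes. The Mock comparisons between lines stand at 48.9% to 53.2% for the ER secretory genes, and the inhibitor comparisons at 8.51% or less.

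The highest Mock mean was in SP-49 for 26 members, in Rec-1 for 15 and in Mino for 6, and the lowest was in Mino for 21, in Rec-1 for 17 and in SP-49 for 9. The median difference was 0.07 for Rec-1 minus Mino, 0.31 for SP-49 minus Mino and -0.16 for Rec-1 minus SP-49, against 0.01, -0.03 and 0.04 over all genes. Calls were made in all 3 comparisons for 7 members, in 2 for 22, in 1 for 7 and in none for 11. The 11 were ATF4, CANX, DERL3, DNAJB9, HSP90B1, P4HB, SPCS3, SRP14, SRP54, SRP68 and SRP72. This rests on the chosen probe sets. For Rec-1 minus Mino, SPCS3 differed by 0.07 on the chosen one and by 0.67 and 0.73 on its others. CANX differed by -0.08 on the chosen one and by 0.18, -0.31, -0.58 and -0.03 on its others. The plasma cell markers summed to 27.9 and 29.0 in Rec-1 Mock, 31.6 and 32.0 in SP-49 Mock and 41.5 and 42.3 in Mino Mock. Of the 6, 4 were lower in Rec-1 than in Mino and 2 were lower in SP-49 than in Mino, and their part in the differences below was not tested.

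**Figure D4:**
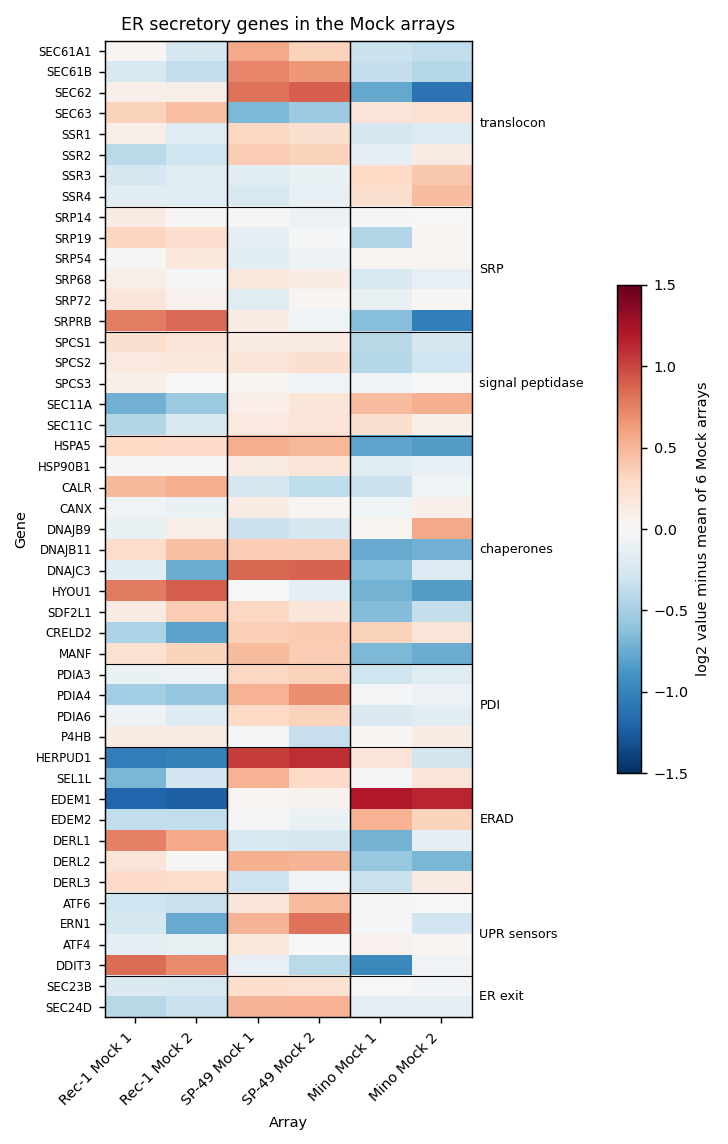
Log2 value minus the mean of the 6 Mock arrays (colour, clipped at 1.5 either way) for the 47 genes by role in the Rec-1, SP-49 and Mino Mock arrays. EDEM1 is lowest in Rec-1 and highest in Mino, HERPUD1 is highest in SP-49, and HSPA5, DNAJB11 and MANF are lowest in Mino.

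Among the chaperones, HSPA5 stood higher in both Rec-1 and SP-49 than in Mino. It measured 9.58 and 9.56 in Rec-1 Mock and 9.83 and 9.77 in SP-49 Mock, against 8.49 and 8.44 in Mino Mock. The difference from Mino was 1.10 for Rec-1 (limma adjusted p = 2.98e-05) and 1.33 for SP-49 (adjusted p = 6.8e-06), while Rec-1 and SP-49 did not differ beyond the test (-0.23, adjusted p = 0.195). Its co-chaperone DNAJB11 measured 7.76 and 7.93 in Rec-1 Mock and 7.86 and 7.85 in SP-49 Mock, against 6.73 and 6.76 in Mino Mock. MANF, a secreted ER stress protein, measured 7.29 and 7.40 in Rec-1 Mock and 7.53 and 7.45 in SP-49 Mock, against 6.39 and 6.32 in Mino Mock. For both genes every Rec-1 and SP-49 array was above every Mino array. The means of Rec-1 and SP-49 exceeded that of Mino by 1.10 and 1.11 for DNAJB11 and by 0.99 and 1.14 for MANF. Over all genes both Rec-1 Mock arrays lay above both Mino Mock arrays for 30%, and both SP-49 Mock arrays for 28.7%.

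HYOU1 took a separate level in each line. It measured 7.31 and 7.44 in Rec-1 Mock, 6.53 and 6.39 in SP-49 Mock and 5.83 and 5.70 in Mino Mock. Rec-1 exceeded Mino by 1.61 (3.06-fold, limma adjusted p = 4.7e-06) and SP-49 by 0.91 (adjusted p = 0.000286). DNAJC3, a co-chaperone that also restrains PERK, was higher in SP-49 than in either other line. It measured 4.87 and 4.30 in Rec-1 Mock, 5.91 and 5.93 in SP-49 Mock and 4.41 and 4.84 in Mino Mock. SP-49 exceeded Mino by 1.29 (limma adjusted p = 0.000875), and Rec-1 was below SP-49 by the log2 difference -1.33 (adjusted p = 0.000596).

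Among ERAD genes, EDEM1 measured 5.23 and 5.18 in Rec-1 Mock, 6.44 and 6.46 in SP-49 Mock and 7.61 and 7.55 in Mino Mock. It was 5.20-fold lower in Rec-1 than in Mino (log2 -2.38, limma adjusted p = 3.58e-08) and passed in all 3 comparisons. HERPUD1 measured 7.72 and 7.74 in Rec-1 Mock, 9.79 and 9.86 in SP-49 Mock and 8.94 and 8.48 in Mino Mock. It was 4.26-fold lower in Rec-1 than in SP-49 (log2 -2.09, adjusted p = 8.01e-06), and its other, near-background probe set differed by -0.003. The difference between Rec-1 and Mino, -0.98 (adjusted p = 0.00269), was -0.42 (adjusted p = 0.0566) with the mean of its probe sets.

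The channel-forming DERL1 measured 7.75 and 7.57 in Rec-1 Mock, 6.78 and 6.75 in SP-49 Mock and 6.29 and 6.87 in Mino Mock. Rec-1 was the high line, by 1.08 over Mino (limma adjusted p = 0.000538) and 0.90 over SP-49 (adjusted p = 0.00162). DERL2, of the same family, measured 6.80 and 6.63 in Rec-1 Mock, 7.13 and 7.12 in SP-49 Mock and 6.03 and 5.91 in Mino Mock. Here Mino was the low line, by 1.15 against SP-49 (SP-49 minus Mino, adjusted p = 0.000101). EDEM2 was lower in Rec-1 than in Mino (-0.80, adjusted p = 0.00399).

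In the translocon, SEC62 measured 7.83 and 7.85 in Rec-1 Mock, 8.57 and 8.66 in SP-49 Mock and 6.99 and 6.65 in Mino Mock. SP-49 exceeded Mino 3.47-fold (log2 1.79, limma adjusted p = 5.04e-06), and its other probe sets differed by 1.14, 0.85, 0.57 and -0.07. SEC63, the other partner of the channel, measured 6.70 and 6.80 in Rec-1 Mock, 5.68 and 5.81 in SP-49 Mock and 6.54 and 6.57 in Mino Mock. SP-49 was thus the high line for SEC62 and the low line for SEC63 (Rec-1 minus SP-49 1.00, SP-49 minus Mino -0.81). With the mean of its 5 probe sets these SEC63 differences were 0.45 and -0.43, still past the test. SSR3 and SSR4, subunits of the TRAP complex beside the channel, were lower in SP-49 than in Mino by 0.49 and 0.53 (log2 -0.49 and -0.53). Without Mino Mock 2 their adjusted p was 0.0584 and 0.0695, and without SP-49 Mock 1 it was 0.0663 and 0.0699.

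SRPRB measured 7.86 and 7.94 in Rec-1 Mock, 7.20 and 7.03 in SP-49 Mock and 6.45 and 6.05 in Mino Mock. Rec-1 exceeded Mino by 1.64 (3.13-fold, limma adjusted p = 1.19e-05), and its other probe sets differed by 0.67 and 0.06. Of the signal recognition particle itself, SRP14, SRP54, SRP68 and SRP72 passed in no Mock comparison, and SRP19 was higher in Rec-1 than in Mino (0.49, adjusted p = 0.0313). SEC11A, a catalytic subunit of signal peptidase, measured 7.57 and 7.75 in Rec-1 Mock, 8.40 and 8.48 in SP-49 Mock and 8.76 and 8.84 in Mino Mock. It was lower in Rec-1 than in Mino (-1.14, adjusted p = 2.76e-05), and the difference between SP-49 and Mino (-0.36, adjusted p = 0.0493) was lost without any 1 of 10 arrays, including either SP-49 Mock and either Mino Mock array (highest adjusted p = 0.227).

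Of the disulfide isomerases, PDIA4 measured 5.34 and 5.27 in Rec-1 Mock, 6.39 and 6.56 in SP-49 Mock and 5.83 and 5.78 in Mino Mock. No arrays of different lines overlapped, and Rec-1 was below SP-49 by the log2 difference -1.16 (limma adjusted p = 2.64e-05). Over all genes both Rec-1 Mock arrays lay below both SP-49 arrays for 28.9% and below both Mino arrays for 27.8%. The sensor ERN1 measured 3.87 and 3.37 in Rec-1 Mock, 4.64 and 4.95 in SP-49 Mock and 4.10 and 3.84 in Mino Mock. SP-49 was high (Rec-1 minus SP-49 -1.17, adjusted p = 0.000353), and its other probe sets differed by -0.67 and 0.21. DDIT3 measured 6.04 and 5.92 in Rec-1 Mock, 5.08 and 4.81 in SP-49 Mock and 4.24 and 5.15 in Mino Mock. Rec-1 was high, by 1.28 over Mino (adjusted p = 0.00195, and 0.83 without Mino Mock 1) and 1.03 over SP-49 (adjusted p = 0.00666, but 0.0658 without SP-49 Mock 2).

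XBP1 was higher in SP-49 Mock than in Mino Mock by 1.51 (limma adjusted p = 8.02e-05), and lower in Rec-1 Mock than in SP-49 Mock (-1.39, adjusted p = 0.000123). Rec-1 and Mino did not differ beyond the test (0.12, adjusted p = 0.735). PERK (EIF2AK3) was lower in Rec-1 than in Mino (-0.64, adjusted p = 0.0188) and than in SP-49 (-0.64, adjusted p = 0.0181). Among the 63 other pathway genes 32 passed between Rec-1 and Mino, 33 between SP-49 and Mino and 28 between Rec-1 and SP-49, or 50.8%, 52.4% and 44.4%, against 26.1%, 25.6% and 28.9% of all genes and 35.3%, 34.7% and 38.9% of those not dim. Averaging the probe sets of each gene moved several more of these differences by over 1.5 times, and all 6 given next still passed. SRPRB stood at 0.79 for Rec-1 minus Mino, SEC62 at 0.85 and SSR3 at -1.06 for SP-49 minus Mino. HERPUD1 stood at -1.05, DNAJC3 at -0.82 and ERN1 at -0.54 for Rec-1 minus SP-49.

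The 8 genes with an ERSE or ERSE-II did not share one order of the lines. HSPA5, HYOU1 and SDF2L1 were lower in Mino than in either other line. CALR was higher in Rec-1, at 7.37 and 7.43, against 6.63 and 6.51 in SP-49 Mock and 6.56 and 6.82 in Mino Mock. Its other probe sets differed by 0.67 and, near background, by 0.04 for Rec-1 minus Mino. CRELD2 was lower in Rec-1, at 5.82 and 5.49, against 6.65 and 6.69 in SP-49 Mock and 6.64 and 6.47 in Mino Mock. HERPUD1 was lowest in Rec-1 and highest in SP-49, and HSP90B1 and CANX passed in no comparison. With the inhibitor HYOU1 was the 1 gene of the 8 that passed, in Rec-1.

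**Figure D5:**
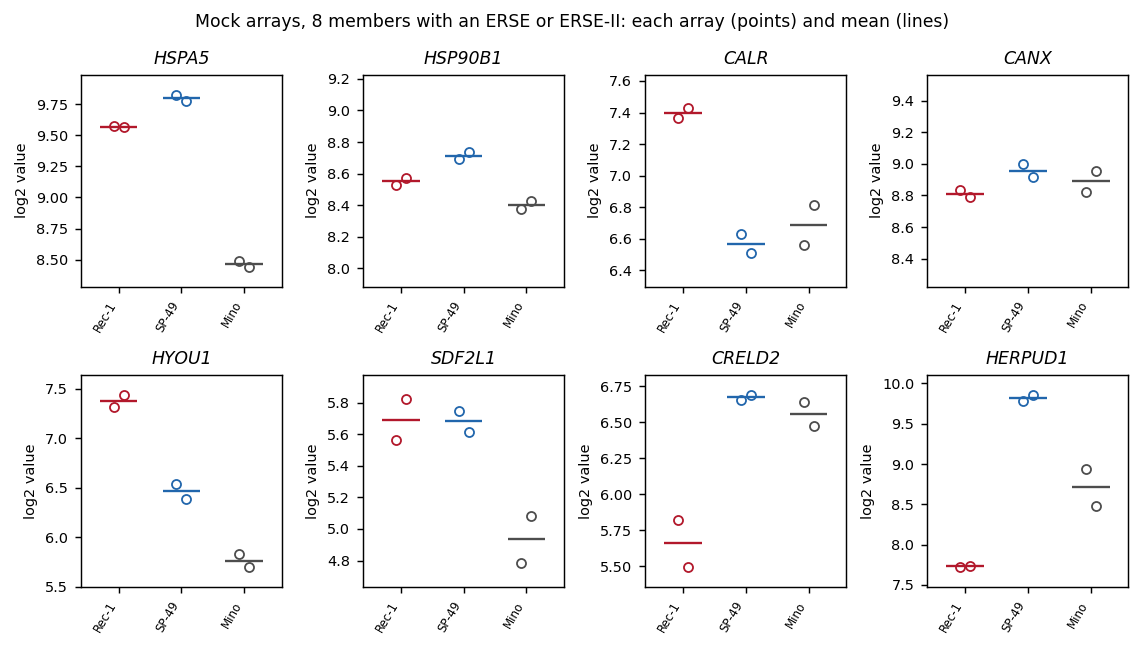
Deposited log2 values (vertical axes, each with its own range) of the 8 genes with an ERSE or ERSE-II in the Rec-1, SP-49 and Mino Mock arrays, with points for arrays and lines for means of 2. HSPA5 and SDF2L1 are low in Mino, CALR is high and CRELD2 low in Rec-1, and HERPUD1 is high in SP-49.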

How the data were processed

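Per the submitters' processing notes, the authors used RMA and limma, with no versions given. The deposited values are on a log2 scale, one per probe set (54675). No filter was applied. Of the 41097 probe sets naming 1 gene, the brightest on average stood for that gene. Group means were fitted to all 12 arrays with limma 3.58.1 in R 4.3.3 (lmFit, eBayes; 6 residual and 5.22 prior degrees of freedom), and p-values were two-sided, adjusted by Benjamini-Hochberg over 19775 genes in each comparison, threshold 0.05. The fit was checked on simulated data.

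Members and gene lists were chosen with earlier results of these data known. Genes named by rule were members past the threshold in an inhibitor comparison and the 5 largest differences each way in each Mock comparison. Up to 6 other pathway genes per inhibitor comparison, XBP1, EIF2AK3, HES1 and MYC were added. Array values are given for most but not all of them, and further members illustrate their group. Alternatives were averaging all probe sets of a gene, removal of dim genes, quantile normalization again, median centring, an intensity trend with robust prior, only the arrays compared, blocking on replicate number (replicate block) and omitting each array in turn. Leaving out both inhibitor arrays of narrowest range was added after seeing the data. Same-numbered arrays deviated together at r = 0.094, -0.011 and 0.046 in Rec-1, SP-49 and Mino, and the main fit did not pair them. With 2 arrays per group these values cannot show whether the numbers pair the arrays. Array number limits precision. Protein sequences were not used here.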

Additional observations from a re-analysis of the deposited data

Results flagged for a closer look

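The response to compound E differed between lines by a direct test for 5 results. The change of SRPRB in Rec-1 minus that in Mino was -1.18 (limma adjusted p = 0.0285). The same difference was -0.89 for TRAM2 (adjusted p = 0.0468), on its brightest probe set. Its other, dimmer probe sets changed by -0.33 and -0.15 in Rec-1 and by -0.37 and -0.25 in Mino. HES1 differed by -3.73 between Rec-1 and Mino (adjusted p = 0.000263) and by -3.44 between SP-49 and Mino (adjusted p = 0.000628), with HES1 near background in Mino. MYC differed by -1.67 between Rec-1 and Mino (adjusted p = 0.0117), and by -1.68 between SP-49 and Mino, which did not pass (adjusted p = 0.0564).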

How the results depend on the processing

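With the inhibitor in Rec-1, 4 members passed, and 0 passed with only the arrays compared (21 of all genes, against 1141), 1 with the replicate block (868 of all genes), 0 with both inhibitor arrays of narrowest range left out (783), and 0 to 4 with 1 array left out. An intensity trend with robust prior called 1723 of all genes and again 4 members, with ATF4 in place of DERL3. The difference between Rec-1 and Mino held 1 member, and 3 with the mean of probe sets (SRPRB, EDEM1 and DERL3), 0 with only the arrays compared, 0 without the arrays of narrowest range, and 0 to 1 with 1 array left out. The difference between Rec-1 and SP-49 held 0, and 1 (HYOU1, which has 1 probe set) with the mean of probe sets for other genes or with a trend and robust prior. In the other comparisons total counts stayed within 1.5 times under all alternatives run. No named gene's called difference reversed, but the median change of members in Rec-1, 0.01, was -0.02 after median centring. Whether the replicate numbers pair the arrays is not known, and under the block SRPRB kept its call in Rec-1 (1 member) and between Rec-1 and Mino. Fewer residual degrees of freedom come with fits on fewer arrays; otherwise the cause was not tested. With 2 arrays per group, the median 95% interval of a member's change in Rec-1 was 0.60 wide.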
